A study of Mus musculus with 6 samples.

Results

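The proteasome is the large protease that degrades ubiquitin-tagged proteins in the cytosol and nucleus, and 48 of the 13809 genes counted in E18.5 mouse hearts carry the symbol of one of its genes. These are the rows whose symbol begins with *Psma* to *Psmg* followed by a digit; no row of a pseudogene had to be dropped. *Psmc3ip*, a meiotic recombination factor, bears such a symbol but is no proteasome gene, so 47 of the 48 have a role in the proteasome. *Psmb9* and *Psmb11* were not analysed here.

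The libraries came from whole-body *Pkm1* knockout (KO) and wild-type (WT) embryos at E18.5, 3 of each genotype, and asked how loss of the muscle form of pyruvate kinase alters the heart. The KO line carries a CRISPR/Cas9-made deletion in the *Pkm* exon that only *Pkm1* transcripts use, and KO embryos were homozygotes from heterozygous parents. The line was founded in zygotes from matings between hybrids of C57BL/6J and DBA/2. The deletion is present in every cell, so a difference in the heart need not arise in cardiomyocytes. The tissue is called heart in the sample labels and ventricular tissue in the text of the study.

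The libraries held 15567624 to 19875546 counts, and 3 counts corresponded to 0.153 to 0.197 CPM (counts scaled to library size), a limit that covers counting error only. The targeted gene *Pkm* averaged 1318 ± 41.1 CPM in WT and 542 ± 10.1 CPM in KO (SD, n = 3), a level that holds both *Pkm1* and *Pkm2* transcripts. Among the WT libraries, WT c stood apart: the chi-square per gene was 1.56 between WT a and WT b, 3.75 and 3.23 between WT c and each of those, and 1.62 to 1.88 between KO libraries. *Xist*, the transcript that silences an X chromosome in females, ran from 4.80 to 5.79 CPM in WT and from 2237 to 2332 CPM in KO, and 0 counts fell on *Ddx3y*, *Kdm5d*, *Uty* or *Eif2s3y*, all Y-linked, in the KO libraries. Genotype and sex therefore cannot be told apart in any comparison here. Cardiomyocyte markers were abundant in every library, with a summed level of 125100 to 128200 CPM in WT and 119600 to 120900 CPM in KO. *Ttn* alone averaged 78880 CPM in WT and 76440 CPM in KO. Of the 6 markers, 3 were lower at an adjusted p under 0.05 in edgeR's quasi-likelihood test and 2 higher. The log2 fold changes were -0.46 for *Myh6*, -0.25 for *Tnnt2*, -0.05 for *Ttn*, 0.06 for *Actc1* and 0.05 for *Myh7*. The atrial genes *Myl4*, *Myl7* and *Nppa* rose, 3 of the 6 atrial markers tested, and their list summed to 595 to 601 CPM in WT and 1006 to 1030 CPM in KO. *Nr2f1*, *Stard10* and *Nr2f2* were not called, with log2 fold changes of -0.23, -0.09 and 0.06. Much of the sum came from *Nppa*, which averaged 372 CPM in WT and 597 CPM in KO. In bulk tissue, fewer cells of a type and less RNA per cell cannot be told apart.

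The 20S core of the proteasome is a barrel of alpha and beta rings, and the beta subunits encoded by *Psmb5*, *Psmb6* and *Psmb7* carry the protease activity. The 19S regulatory particle caps the barrel: its lid takes the ubiquitin off the substrate, and the ATPases of its base unfold the substrate and feed it into the core. Immune cells and cells exposed to interferon replace the catalytic subunits by *Psmb8*, *Psmb9* and *Psmb10* products, which favours peptides for MHC class I. The transcription factor encoded by *Nfe2l1* drives proteasome genes together when proteasome activity is short, and the system is known in muscle for its part in protein turnover and atrophy.

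Proteasome genes differed little between genotypes. All 48 passed the filter on low counts, and 41 had a mean of at least 10 CPM. At a Benjamini-Hochberg adjusted p under 0.05 in edgeR's quasi-likelihood test of 13804 genes, 8 were lower in KO hearts: *Psmb2*, *Psmb8*, *Psmc1*, *Psmc3*, *Psmd8*, *Psmd11*, *Psme1* and *Psme4*. The same test called *Psmb10*, *Psmf1* and *Psmg1* higher. Of all genes tested, 15.7% were called lower and 14.6% higher, so the share of proteasome genes called lower (16.7%) lay near the background and the share called higher (6.25%) lay below it. Among genes at a mean of at least 10 CPM, 7 of the 41 were lower and 3 higher, where 18.4% and 15% of all such genes were. Only *Psmb8* also changed by at least 1.5-fold. Over all genes, 3.2% were lower and 2.99% higher by that measure. The WT and KO libraries did not overlap for 13 proteasome genes with KO lower (21.4% of all genes) and for 3 with KO higher (21% of all genes).

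The number of genes below 0 and the number of calls depended on how the libraries were scaled, while the gap between the median of the 48 and that of all genes was about the same on both scales. Scaling used TMM, which sets the bulk of genes to no change. On that scale 38 of the 48 (79.2%) had a log2 fold change below 0, against 49.6% of all genes, and their median was -0.06, against 0.00172 for all genes. With plain library totals, an alternative added after the sums below were seen, 29 of the 48 lay below 0, the median of the 48 was -0.01 and that of all genes 0.05. The calls then changed from 8 lower and 3 higher to 3 lower (*Psmb8*, *Psmc3*, *Psmd8*) and 4 higher, with *Psmb3* joining *Psmb10*, *Psmf1* and *Psmg1*. Over all genes tested, the calls changed from 2168 lower and 2011 higher to 1527 lower and 2911 higher. The TMM factors were 0.976 to 0.989 in WT and 1.02 in each KO library. Without WT c, 7 proteasome genes were lower and 3 higher on the TMM scale, and 39 of the 48 lay below 0. Over all genes tested in that fit, 2306 were lower and 2013 higher.

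**Figure D1:**
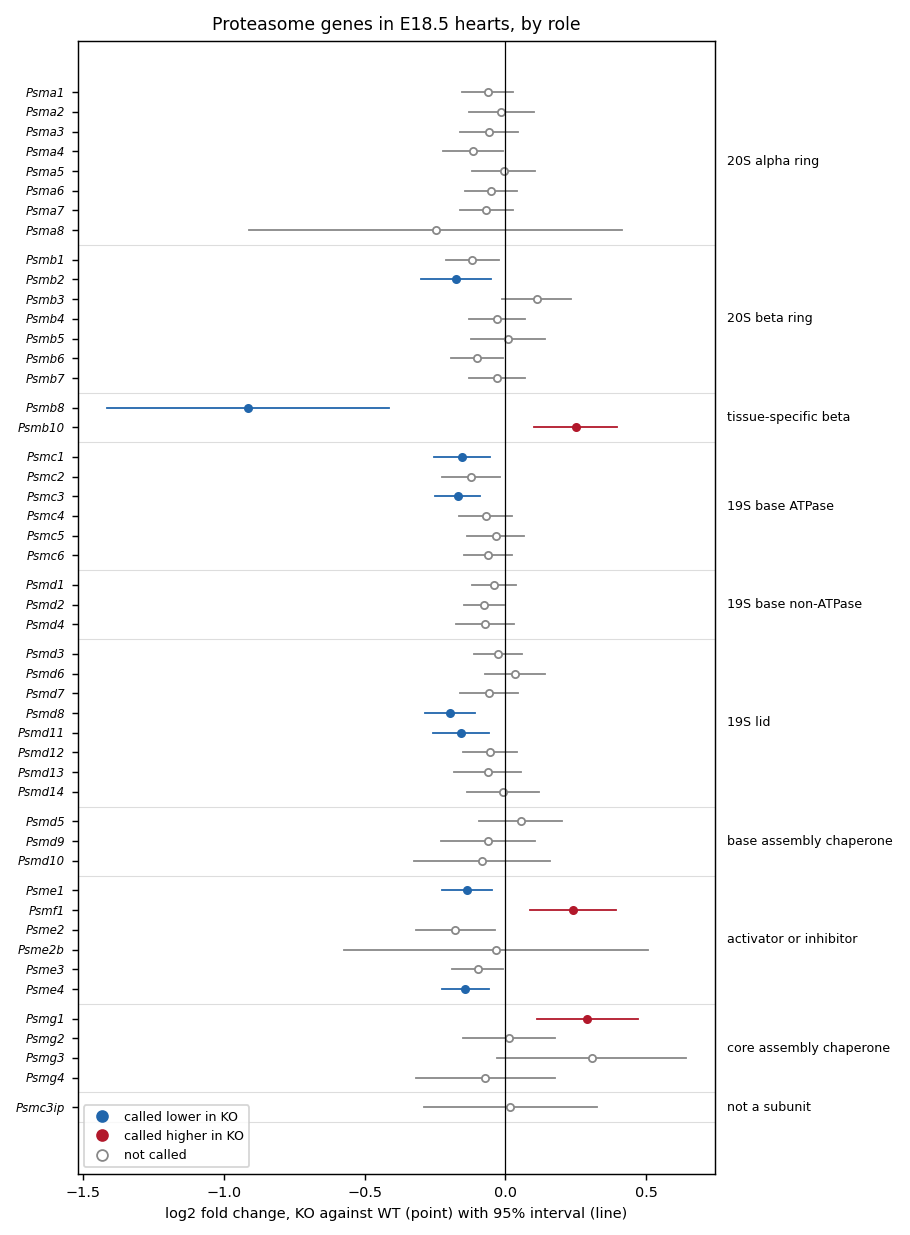
Log2 fold change of each of the 48 genes, KO against WT on the TMM scale (point), with its 95% interval (line), grouped by role. Blue points are the 8 genes called lower, red the 3 called higher and open grey the 37 not called; 42 of the 48 points lie within 0.2 of 0, and *Psmb8* lies farthest from it.

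Most proteasome genes that were not called were bounded closely. For 35 of the 37, the 95% interval of the log2 fold change held no change as large as 1.5-fold in either direction. The exceptions were *Psma8*, a germ cell alpha subunit at 1.07 ± 0.239 CPM in WT, and *Psmg3*, a core assembly chaperone at 4.18 ± 0.183 CPM in WT, whose interval reached 0.64. *Psme2b*, at 1.40 CPM in WT, had an interval of -0.57 to 0.51 and shares 69.3% of its 50-base words with other transcripts, *Psme2* among them. A further 6 of the 37 had an adjusted p under 0.1 in the same edgeR test: *Psme2*, *Psmb1*, *Psmc2*, *Psme3*, *Psma4* and *Psmb6*, all with a log2 fold change below 0.

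Among the constitutive core genes a single call was made. None of the 8 alpha genes passed the test, and their log2 fold changes ran from -0.25 for *Psma8* to -0.01 for *Psma5*. Of the 7 beta ring genes only *Psmb2*, a structural beta subunit, was called. *Psmb2* was at 66.8, 67.5 and 81.9 CPM in WT a, b and c and at 60.6, 67.2 and 63.2 CPM in KO a, b and c. The WT c library was high and the groups overlapped, since WT a lay below KO b. Its log2 fold change was -0.18 (SE 0.061, adjusted p = 0.0308, edgeR's quasi-likelihood test). Without WT c this was -0.08 (adjusted p = 0.212), and the call was also lost without KO a (adjusted p = 0.169), without KO c (adjusted p = 0.101), by DESeq2 (adjusted p = 0.0648) and with plain library totals (adjusted p = 0.11).

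The 3 constitutive catalytic genes were not called. *Psmb5*, which encodes the chymotrypsin-like subunit, was at 44.8, 40.3 and 37.2 CPM in WT and 42.0, 38.6 and 42.5 CPM in KO. *Psmb6*, for the caspase-like subunit, was at 85.2, 92.2 and 94.7 CPM in WT and 85.9, 81.8 and 85.7 CPM in KO. *Psmb7*, for the trypsin-like subunit, was at 106, 98.6 and 92.0 CPM in WT and 92.9, 96.4 and 101 CPM in KO. WT and KO libraries overlapped for each of them. The 95% intervals of the log2 fold change were -0.12 to 0.14 for *Psmb5*, -0.19 to -0.01 for *Psmb6* (adjusted p = 0.096, edgeR's quasi-likelihood test) and -0.13 to 0.07 for *Psmb7*. Without WT a, *Psmb6* was called (log2 fold change -0.14, adjusted p = 0.0238). The value of *Psmb5* is uncertain because 54.1% of its 50-base words occur in other genes, its pseudogene among them, and the authors' counting could have split or dropped such reads.

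*Psmb8* and *Psmb10*, the interferon-inducible catalytic genes with a row, went in opposite directions. *Psmb8* (GRCm38 chromosome 17, 34197721 to 34201454, plus strand) was at 2.55, 2.45 and 1.97 CPM in WT and 1.48, 1.07 and 1.13 CPM in KO, from 44, 48 and 30 counts and 28, 17 and 21 counts. Every KO library lay below every WT library. It fell by 0.92 on the log2 scale (SE 0.244, 95% interval -1.42 to -0.41, adjusted p = 0.00538, edgeR's quasi-likelihood test), and the call held in all 17 alternatives, with log2 fold changes of -1.08 to -0.84. One of its exons overlaps *Gm20496* on the other strand, and whether the counting used strand is not given in the sources used here. *Psmb10* (chromosome 8, 105935735 to 105938444, minus strand) was at 22.0, 20.4 and 21.7 CPM in WT and 26.92, 24.00 and 24.96 CPM in KO. Every KO library lay above every WT library, and the log2 fold change was 0.25 (SE 0.0718, adjusted p = 0.0098). The call was lost without WT b (adjusted p = 0.0643) and without KO a (adjusted p = 0.0764).

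Per kilobase of annotated exon, *Psmb8* stood at 1.51% of its constitutive counterpart *Psmb5* in WT and 0.795% in KO, while *Psmb10* stood at 43.5% of *Psmb7* in WT and 52.5% in KO. Over libraries the first ratio ran from 1.41% to 1.62% in WT and from 0.706% to 0.939% in KO, and the second from 41.4% to 47.3% in WT and from 49.5% to 58.1% in KO. The groups did not overlap in either ratio. The size of each ratio depends on the annotated exon lengths used. These were 3381 bases for *Psmb8*, 899 for *Psmb5*, 1705 for *Psmb10* and 3421 for *Psmb7*. The first ratio also rests on the level of *Psmb5*, which is uncertain because of shared words. *Psmb8* is known to be high in immune cells. Of 9 immune markers, 2 (*C1qa* and *C1qc*) were called lower and 0 higher, and the list summed to 66.1 to 69.5 CPM in WT and 63.5 to 72.1 CPM in KO. The leukocyte marker *Ptprc* ran from 2.96 to 4.46 CPM in WT and from 3.49 to 4.55 CPM in KO. The part of immune cells in the *Psmb8* difference was not tested.

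**Figure D2:**
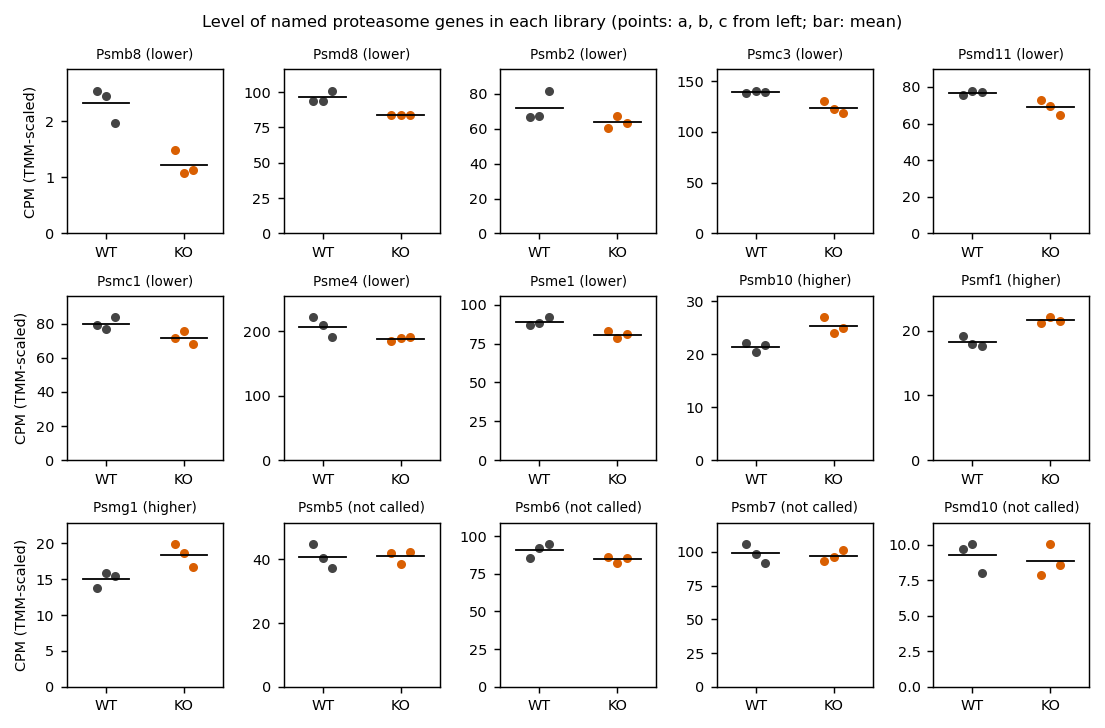
Level in CPM (TMM-scaled, vertical axes from 0) of the 11 called proteasome genes, the 3 constitutive catalytic genes and *Psmd10* in each library, WT in grey and KO in orange, with the mean of each group as a bar. *Psmb8* shows the widest separation relative to its level, *Psmb2* overlaps because WT a lies below KO b, and *Psmb5*, *Psmb6*, *Psmb7* and *Psmd10* overlap.

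Of the 17 *Psm* genes of the 19S regulatory particle, 4 were called lower and 0 higher, against 15.7% and 14.6% of all genes tested. *Psmc3*, an ATPase of the base on chromosome 2, was at 138.5, 140.5 and 139.4 CPM in WT and 131, 123 and 119 CPM in KO. All KO libraries lay below all WT libraries, and the log2 fold change was -0.17 (SE 0.0395, adjusted p = 0.0017, edgeR's quasi-likelihood test). *Psmd8*, a lid subunit on chromosome 7, was at 93.9, 94.1 and 101 CPM in WT and 83.9, 83.6 and 84.1 CPM in KO, again without overlap. Its log2 fold change was -0.20 (SE 0.0429, adjusted p = 0.000883). Both calls held in all 17 alternatives, at -0.21 to -0.12 for *Psmc3* and -0.22 to -0.15 for *Psmd8*.

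*Psmc1*, another base ATPase, was at 79.5, 76.8 and 83.8 CPM in WT and 71.6, 75.7 and 68.4 CPM in KO. *Psmd11*, a lid subunit, was at 75.4, 77.9 and 77.4 CPM in WT and 72.7, 69.7 and 64.4 CPM in KO. Neither overlapped between groups, although KO b and WT b lay close for *Psmc1*. Their log2 fold changes were -0.15 (SE 0.0485, adjusted p = 0.0171) and -0.16 (SE 0.0486, adjusted p = 0.0146) by edgeR's quasi-likelihood test. The call of *Psmc1* was lost without KO a (adjusted p = 0.0616) and without KO c (adjusted p = 0.119), and that of *Psmd11* without WT b (adjusted p = 0.0596) and without KO c (adjusted p = 0.128). With plain library totals both were lost (adjusted p = 0.095 and 0.0844). The other 4 ATPase genes had log2 fold changes of -0.12 to -0.03, the 3 non-ATPase genes of the base, *Psmd1*, *Psmd2* and the ubiquitin receptor *Psmd4*, of -0.08 to -0.04, and the other 6 lid genes of -0.06 to 0.03. *Psmd14*, which encodes the lid's deubiquitinase, averaged 49.3 ± 3.63 CPM in WT and 49.1 ± 3.82 CPM in KO (SD, n = 3 each), with a 95% interval of -0.14 to 0.12 for its log2 fold change.

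Among the activators, which open the core in place of the 19S particle, 2 genes fell. *Psme4*, which encodes PA200, was at 221.5, 209.0 and 191.1 CPM in WT and 184.1, 189.1 and 190.8 CPM in KO. WT c was just above the highest KO library, so the groups did not overlap by a narrow margin. Its log2 fold change was -0.14 (SE 0.0409, adjusted p = 0.00972, edgeR's quasi-likelihood test), and the call was lost without WT a (-0.09, adjusted p = 0.087), without KO a (adjusted p = 0.0689) and with plain library totals (adjusted p = 0.0909). *Psme1*, the alpha subunit of the interferon-inducible PA28 activator, was at 86.8, 88.1 and 91.9 CPM in WT and 82.8, 78.5 and 80.9 CPM in KO, with every KO library below WT. Its log2 fold change was -0.14 (SE 0.0435, adjusted p = 0.0178); without KO b the adjusted p was 0.0885, without KO c 0.0518 and with plain library totals 0.118. *Psme2*, the partner of *Psme1* in PA28, averaged 27.2 ± 1.10 CPM in WT and 24.1 ± 1.31 CPM in KO (SD, n = 3 each), with a log2 fold change of -0.18 that missed the threshold (adjusted p = 0.0505). *Psme2* shares 28.3% of its 50-base words with other genes, *Psme2b* among them. *Psme3*, the nuclear activator PA28 gamma, had a log2 fold change of -0.10 (adjusted p = 0.0898).

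*Psmf1*, which encodes the proteasome inhibitor PI31, was at 19.2, 18.0 and 17.6 CPM in WT and 21.1, 22.0 and 21.5 CPM in KO. All KO libraries lay above all WT libraries, and the log2 fold change was 0.24 (SE 0.0744, adjusted p = 0.016, edgeR's quasi-likelihood test). The call was lost by DESeq2 (adjusted p = 0.0588), without WT b (adjusted p = 0.0604) and without KO b (adjusted p = 0.0556). *Psmg1*, an assembly chaperone of the alpha ring, was at 13.8, 15.8 and 15.5 CPM in WT and 19.9, 18.6 and 16.8 CPM in KO, also without overlap. Its log2 fold change was 0.29 (SE 0.0871, adjusted p = 0.0127), and the call was lost without WT a (adjusted p = 0.0713) and without KO a (adjusted p = 0.0978). *Psmg2*, whose product pairs with that of *Psmg1*, had a log2 fold change of 0.01 with a 95% interval of -0.15 to 0.17. *Psmg3* and *Psmg4*, which form the other core chaperone, had values of 0.31 (95% interval -0.03 to 0.64) and -0.07 (-0.32 to 0.17). The difference between *Psmg1* and *Psmg2* was not tested. None of the 3 base chaperone genes was called. Among these, *Psmd10*, which encodes gankyrin and is the only X-linked proteasome gene of the 48, was at 9.73, 10.05 and 8.02 CPM in WT and 7.90, 10.04 and 8.59 CPM in KO, with overlap and a log2 fold change of -0.08 (95% interval -0.33 to 0.16).

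Summed over genes, the counts of the 26S subunits (31 genes of core and regulatory particle) were 2416, 2436 and 2452 CPM in WT and 2334, 2320 and 2285 CPM in KO on the TMM scale. Every KO library lay below every WT library, and KO was 0.95 ± 0.0126 of WT. The ratio was 0.96 for the 14 genes of the constitutive core, 0.943 for the 17 genes of the regulatory particle, 0.926 for the 6 ATPases and 0.923 for the 6 activator and inhibitor genes. With plain library totals these became 0.982 for the 26S subunits, 0.993 for the core, 0.975 for the regulatory particle, 0.958 for the ATPases and 0.954 for the activators. On that scale the groups overlapped for the core and remained apart for the other sums. The 4 core assembly chaperones together were at 43.6, 45.4 and 44.8 CPM in WT and 49.2, 47.2 and 49.7 CPM in KO, a ratio of 1.09 (1.13 with plain library totals), without overlap on either scale. The 3 base assembly chaperones had a ratio of 0.992 and overlapped. These sums weigh abundant genes most and carry no test.

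**Figure D3:**
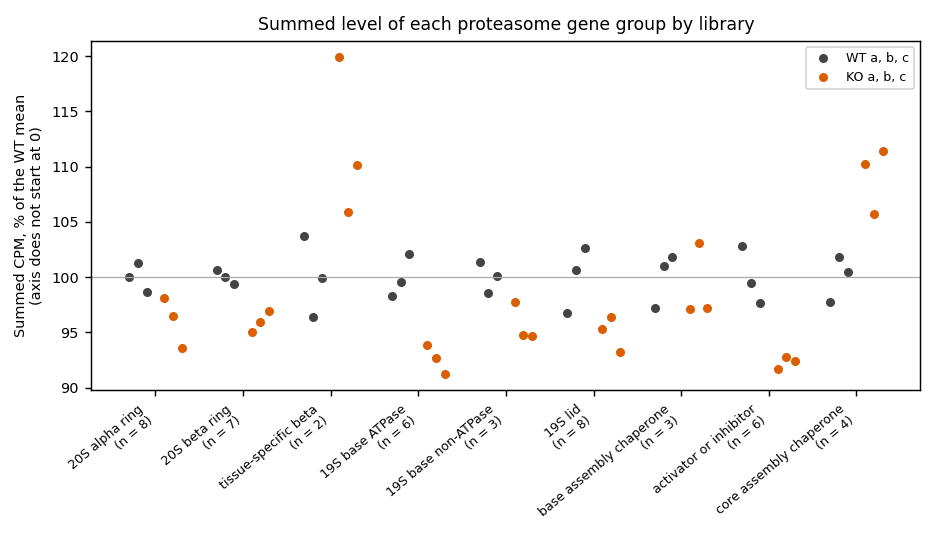
Summed CPM of each group of proteasome genes in each library (WT in grey, KO in orange, libraries a, b and c from left), as a percentage of the group's WT mean on the TMM scale; the vertical axis does not start at 0. KO libraries lie below all WT libraries in the core rings, base, lid and activator groups, above them in the core assembly chaperones and the tissue-specific beta genes, and among them in the base assembly chaperones; with plain library totals the rings, the non-ATPase base genes and the lid overlap.

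Levels were compared between genes per kilobase of the union of annotated exons, which understates genes with long unused exons. In WT hearts the 31 *Psm* genes of the 26S particle ran from 12.1 CPM per kb for *Psmd11* to 63.5 CPM per kb for *Psma6*, with a median of 26.7 CPM per kb. The constitutive catalytic genes stood at 45.4 (*Psmb5*), 48.5 (*Psmb6*) and 28.9 CPM per kb (*Psmb7*). Most assembly factors and the inhibitor lay below that range, with *Psmg1* at 11.2, *Psmd5* at 2.90, *Psmd9* at 2.50 and *Psmf1* at 2.83 CPM per kb, while *Psmg4* at 14.6 CPM per kb lay within it. *Psmb8* at 0.687 CPM per kb and *Psma8* at 0.431 CPM per kb were the lowest of the 48.

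Promoter windows from RefSeq (GRCm38.p6, 250 bases before to 50 after the annotated start) were found for 40 of the 48 genes. They were not found for *Psmb7*, *Psmb2*, *Psma8*, *Psmg2*, *Psmc3*, *Psmd3*, *Psmd7* and *Psmb1*. Both strands were searched for CCAAT, the box bound by NFY, for TGACNNNGC, the core of the antioxidant response element that *Nfe2l1* and *Nfe2l2* products bind, and for GAAANNGAAA, the core of interferon response elements. CCAAT occurred in 13 of the 40 windows and in 41.1% of the windows of 27025 genes. TGACNNNGC occurred in 6 of the 40 (*Psmb5*, *Psmb6*, *Psmc6*, *Psmd9*, *Psmd12* and *Psme4*) and in 14.0% of all. GAAANNGAAA occurred in 5 of the 40 (*Psmb3*, *Psmd4*, *Psmd9*, *Psme1* and *Psmg4*) and in 3.99% of all. Of the genes called lower, *Psmc1*, *Psme4* and *Psme1* each held a match to one of these motifs, and their windows are shown 5′ to 3′ on the plus strand for that reason, with the match in capitals.
*Psmc1* at chr12:100109952-100110251, CCAAT on the plus strand, 175 bases before the start: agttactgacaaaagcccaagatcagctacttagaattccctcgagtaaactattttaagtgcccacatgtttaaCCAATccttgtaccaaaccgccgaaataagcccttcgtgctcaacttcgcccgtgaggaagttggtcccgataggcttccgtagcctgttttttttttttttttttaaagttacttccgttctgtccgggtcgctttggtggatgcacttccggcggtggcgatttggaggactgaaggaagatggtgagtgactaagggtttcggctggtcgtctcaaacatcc
*Psme4* at chr11:30771525-30771824, TGACNNNGC read on the minus strand, 7 bases before the start: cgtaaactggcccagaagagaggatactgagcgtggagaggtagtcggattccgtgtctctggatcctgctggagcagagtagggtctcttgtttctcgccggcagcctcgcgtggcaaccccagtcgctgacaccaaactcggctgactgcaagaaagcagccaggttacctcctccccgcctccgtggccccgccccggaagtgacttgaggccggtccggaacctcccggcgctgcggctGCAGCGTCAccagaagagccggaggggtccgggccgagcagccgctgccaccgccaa
*Psme1* at chr14:55578244-55578543, GAAANNGAAA read on the minus strand, 9 bases after the start: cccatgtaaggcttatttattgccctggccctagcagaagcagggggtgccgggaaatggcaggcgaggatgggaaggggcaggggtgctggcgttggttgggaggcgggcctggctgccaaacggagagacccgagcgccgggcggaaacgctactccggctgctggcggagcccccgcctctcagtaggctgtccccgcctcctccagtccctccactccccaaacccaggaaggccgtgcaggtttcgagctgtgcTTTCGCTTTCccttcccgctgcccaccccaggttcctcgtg
A match describes letters in the window and not a bound site. The windows of *Psmb8*, *Psmb10*, *Psmd8*, *Psmd11*, *Psmf1* and *Psmg1* held none of the 3 motifs, and both *Psmb8* and *Psmb10* have further annotated starts outside the window. In GENCODE *Psme1* also begins upstream of its window, at 55578123, so its match is placed from the RefSeq start only. GENCODE begins *Psmc1* at 100110154 and *Psme4* at 30771726, inside their windows but upstream of the RefSeq starts. Their distances are also counted from the RefSeq start, and the *Psme4* match lies after the GENCODE start.

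Genes that work with the proteasome were read in the same edgeR test, from lists chosen with earlier results known, against 15.7% of all genes lower and 14.6% higher. Of 13 proteasome-associated factors, 4 were lower and 1 higher, and DESeq2 called 1 lower and 0 higher. DESeq2 called fewer genes over the whole table, with 1639 lower and 1362 higher against 2168 and 2011 by edgeR. *Adrm1*, the ubiquitin receptor of the 19S base, was at 45.3, 51.0 and 56.4 CPM in WT and 42.6, 41.1 and 44.7 CPM in KO, without overlap, and fell by 0.25 on the log2 scale (adjusted p = 0.00462). *Ubxn1*, a cofactor that binds ubiquitin chains, had a log2 fold change of -0.20 (adjusted p = 0.028) that became -0.09 (adjusted p = 0.248) without WT c, and was not called without any one of the KO libraries (adjusted p of 0.056 to 0.106). *Ube3c*, a ubiquitin ligase on the proteasome, was the gene called higher, at 0.12, and its call was lost without WT c (adjusted p = 0.0751) or any KO library (adjusted p of 0.0612 to 0.0877). *Pomp*, the maturation factor of the core, averaged 42.5 ± 1.97 CPM in WT and 40.1 ± 2.63 CPM in KO (SD, n = 3 each) and was not called. Of 12 shuttle and extraction factors, 2 were lower: *Vcp*, the segregase, with a log2 fold change of -0.10 (adjusted p = 0.00815; 0.0674 without KO a and 0.176 with plain library totals), and its cofactor *Ufd1l*, with -0.29 (adjusted p = 0.000803).

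Of 7 regulators of proteasome genes, 4 were lower and 0 higher (3 lower by DESeq2), with a median log2 fold change of -0.20. *Nfe2l1* was at 258, 258 and 281 CPM in WT and 229, 231 and 234 CPM in KO, without overlap, and fell by 0.20 on the log2 scale (SE 0.035, adjusted p = 8.87e-05, edgeR's quasi-likelihood test). *Nfe2l2*, which drives antioxidant genes, ran from 72.1 to 78.5 CPM in WT and from 55.9 to 57.0 CPM in KO, a log2 fold change of -0.41 (adjusted p = 2.18e-07). *Mafk*, a small Maf partner of both, ran from 46.9 to 52.0 CPM in WT and from 22.9 to 24.1 CPM in KO, a log2 fold change of -1.10 (adjusted p = 1.15e-13). These 3 calls held in all 17 alternatives. The small Maf gene *Maff* was the fourth gene called lower, at -0.23 (adjusted p = 0.0273), and its call was lost by DESeq2 (adjusted p = 0.0885), with plain library totals (0.0767), without WT a (0.0635), without KO b (0.111) and without KO c (0.0749). *Mafg* was not called (0.13, 95% interval -0.04 to 0.30). Of the 6 proteasome genes with a TGACNNNGC match, only *Psme4* was called, as lower, where 15.7% of all genes were lower and 14.6% higher. *Psmb2* and *Psmc3*, also called lower, had no window to search. A link between the motif and the calls was not tested.

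Of 11 ubiquitin ligases known from muscle, 1 was lower and 3 higher. *Asb2* rose by 0.27, *Mul1*, a mitochondrial ligase, by 0.28 and *Fbxo32*, the atrophy gene for atrogin-1, by 0.18 on the log2 scale (adjusted p = 2.73e-07, 0.000381 and 0.00798, edgeR's quasi-likelihood test), and *Fbxo32* was just outside the threshold without KO c (adjusted p = 0.0516). *Trim63*, which encodes MuRF1, had a log2 fold change of 0.10 (adjusted p = 0.0614), and was called without WT c (adjusted p = 0.0118) and with plain library totals (adjusted p = 0.00521). *Trim55* had -0.10 (adjusted p = 0.00729; 0.147 with plain library totals).

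The list in which *Psmb8* would be read, MHC class I and interferon genes, was lower: 12 of its 17 genes were called lower and 0 higher (11 and 0 by DESeq2), all 17 had a log2 fold change below 0 and the median was -0.59. *Ifit3* fell by 1.54 and *Isg15* by 1.14 on the log2 scale (adjusted p = 1.2e-05 and 6.35e-06, edgeR's quasi-likelihood test), and both calls held in all 17 alternatives. *Tap1* and *Tap2*, the peptide transporter genes that neighbour *Psmb8* on chromosome 17, had log2 fold changes of -0.70 (adjusted p = 0.000592) and -0.30 (adjusted p = 0.0915). Beside them, *Psmb8* at -0.92, *Psme1* at -0.14 and *Psme2* at -0.18 had the same sign and *Psmb10* at 0.25 the opposite one, so the interferon-inducible proteasome genes did not all go one way. GAAANNGAAA was present in the windows of 6 of the 13 list genes with a window.

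**Figure D4:**
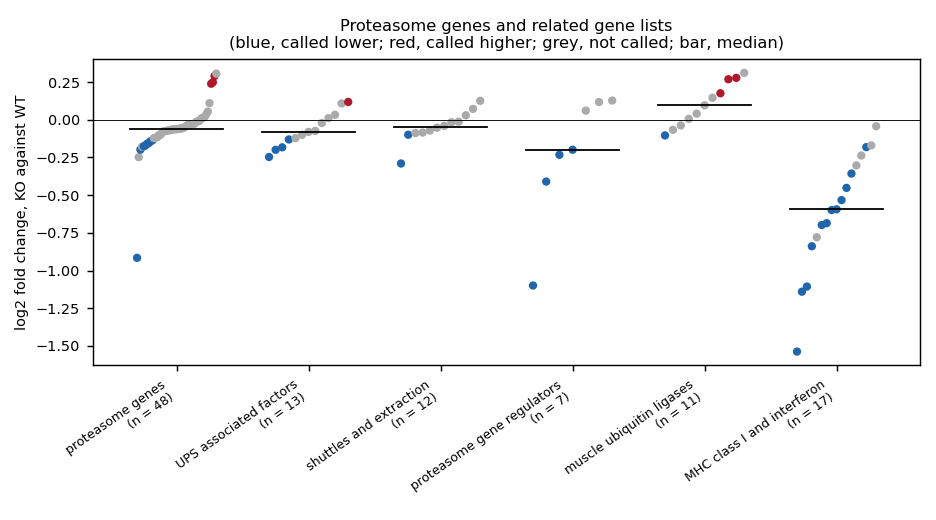
Log2 fold change of every tested gene, KO against WT on the TMM scale, in the 48 proteasome genes and in 5 lists of related genes (points, sorted within a list; blue called lower, red called higher, grey not called; bar, median of the list). The 48 lie near 0 apart from *Psmb8*, and the MHC class I and interferon genes lie lowest, with a median of -0.59.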

How the data were processed

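RNA was depleted of ribosomal RNA and sequenced from paired ends. Per the submitters' processing notes, cutadapt 1.18, HISAT2, StringTie and the mm10 build were used. The deposited table holds the authors' raw counts, 1 row per gene symbol, and the counting program and its filter are not given in the sources used here; the lowest row total was 59. Their columns of fold changes, average levels, p-values and false discovery rates for KO against WT were not used. The columns carry the genotype without a replicate number, so libraries are named a to c in column order.

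Counts were filtered with filterByExpr (13804 of 13809 genes kept), scaled by TMM and tested with edgeR 4.0.16 (R 4.3.3) by its quasi-likelihood test, with no term but genotype, p-values being adjusted by Benjamini-Hochberg over the whole table. The script was tested on simulated data. Intervals are 95%. Coordinates, exon lengths and shared 50-base words come from GENCODE M21 (GRCm38); 13299 symbols matched directly, 492 through RefSeq and 18 did not. The study's methods call the libraries of a genotype biological replicates. The genes named are the catalytic and called proteasome genes, *Psmd10*, the 2 called genes per direction with the largest change in each list, and *Nfe2l1*, *Pomp*, *Adrm1*, *Fbxo32* and *Trim63*; other names were added after their values were seen. The results of 1 further list are not reported here. The members and lists were chosen with earlier results of these data known. Alternatives were RLE factors, TMM without *Rn45s*, plain library totals, DESeq2 1.42.0, edgeR's exact and likelihood ratio tests, limma 3.58.1 voom, 2 other filters, X and Y left out, each library left out, and WT a and b summed.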

Additional observations from a re-analysis of the deposited data

How the results depend on the processing

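Leaving out each library in turn, 4 to 12 proteasome genes were lower (4 without KO c, 12 without WT a) and 1 to 3 higher (1 without WT b and 1 without KO a). Over all genes tested, 1704 to 2306 were lower (1735 without KO c, 2038 without WT a). The number higher ran from 1479 to 2013 (1581 without WT b, 1547 without KO a). With plain library totals, 3 proteasome genes were lower and 4 higher, against 1527 lower and 2911 higher over all genes tested. The calls of *Psmb8*, *Psmc3* and *Psmd8* held in all 17 alternatives. *Psmb5* and *Psmb7*, which were not called, changed sign: their log2 fold changes ran from -0.049 to 0.0782 and from -0.0771 to 0.0196 when a library was left out, and *Psmb7* was at 0.0175 with plain library totals. Summed CPM, KO over WT, moved with plain library totals to 0.982 for the 26S subunits, 0.993 for the constitutive core, 0.993 for the alpha ring, 0.992 for the beta ring, 0.975 for the regulatory particle, 0.958 for the ATPases, 0.989 for the non-ATPase base genes and 0.954 for the activators and inhibitor, by construction of the scaling. DESeq2 called 1 associated factor lower and 0 higher, against 1639 lower and 1362 higher over all genes tested, and the cause was not tested. No paired analysis was possible because no replicate number stands on any column. Genes below about 3 CPM, such as *Psmb8*, *Psma8* and *Psme2b*, are limited by counts.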
